A study of Mus musculus with 12 samples.

Results

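Matrix metalloproteinases (MMPs) are zinc-dependent proteases that cut extracellular matrix and cell-surface proteins, and the tissue inhibitors of metalloproteinases (TIMPs) are secreted proteins that bind and block them. Here 7 MMP genes (Mmp2, Mmp3, Mmp9, Mmp10, Mmp12, Mmp13 and Mmp14) and 3 TIMP genes (Timp1, Timp2 and Timp3) were selected by gene symbol, 10 of the 55421 genes in the deposited table. Each symbol matched a gene, and all 10 were among the 18108 genes that passed the filter on low counts, Mmp3 only through paclitaxel libraries. They were described in MOC2, a cell line from a mouse oral carcinoma, in which the study asked what vesicles from drug-treated tumour cells tell their surroundings.

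Polyadenylated RNA was sequenced from cultured cells, and the 4 groups of 3 libraries differed in an extracellular vesicle (EV) label and in treatment. The first group was MOC2-25 cells labelled EV-proficient with DMSO, the solvent control, and the second was the same cells given 600 nM paclitaxel for 48 h. The remaining groups were MOC2-27 cells labelled EV-deficient, with DMSO and with 600 nM paclitaxel for 48 h. Paclitaxel stabilises microtubules and was used to bring the cells into senescence. The labels do not name the gene altered to block vesicle release, and each EV label stands for 1 derivative line, so the label and other differences between the lines cannot be told apart. The labels do not say whether replicates came from separate cultures, so p-values measure only the spread between these libraries. All groups shared the MOC2 background, the medium and the plating.

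Most MMPs are made as inactive proenzymes. They are grouped by their main substrates: collagenases cut fibrillar collagen, gelatinases cut denatured collagen and basement membrane, stromelysins cut many matrix proteins and other proenzymes, and membrane-type enzymes act at the cell surface. Senescent cells are known for secreting several MMPs. TIMP2 has a further role, since with the membrane-type enzyme MMP14 it takes part in activating the MMP2 proenzyme.

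Libraries held between 23263472 and 62955757 counts, and 3 counts, the floor used here, equalled 0.0492 to 0.121 CPM (counts scaled to the library size). Of 10 squamous epithelial markers 8 were tested, but Krt5 and Trp63 never exceeded 8 and 11 counts. Krt14, of the same list, had a mean of at least 5 CPM. As labelled it fell by 3.09 under paclitaxel with the EV-deficient label (log2; edgeR adjusted p 3.28e-18). Its difference between the labels, EV-deficient against EV-proficient, was 1.83 with DMSO and -1.25 with paclitaxel (log2). The sum of the 10 markers went from 5420 ± 259 CPM under DMSO to 3940 ± 182 under paclitaxel with the EV-proficient label, and from 6280 ± 269 to 3290 ± 66.8 CPM with the EV-deficient label (SD, n = 3). Under the drug 2 of the 8 were higher and 5 lower with the first label, and 1 higher and 7 lower with the second, and the keratin Krt6a fell in both (-1.44 and -6.98, log2, edgeR adjusted p 3.92e-11 and 3.04e-20). The part of these markers in the results was not tested. The first principal component (54.1% of the variance) separated paclitaxel from DMSO libraries. On the second (16.4%), EV-proficient DMSO lay with EV-deficient paclitaxel (27.2 to 43.5), and EV-deficient DMSO with EV-proficient paclitaxel (-64.6 to -20.5). A sequence the authors added to the gene table under the name dngfr crossed the labels in the same way. With the EV-proficient label it was at 8.99 ± 3.23 CPM under DMSO and 3.24 ± 0.683 CPM under paclitaxel, and with the EV-deficient label at 2.15 ± 0.349 and 10.9 ± 1.42 CPM (SD, n = 3). Groups are therefore named as labelled. The arrangement as labelled and one in which the EV labels are exchanged within 1 treatment cannot be told apart here. Only the exchange within the paclitaxel libraries was run. An exchange within the DMSO libraries would by construction swap the lines in those exchanged paclitaxel effects, and turn the sign of those exchanged interactions. Each EV comparison, interaction and difference between the lines rests on the labels. Values with the labels of the 6 paclitaxel libraries exchanged, a setting added after the data were seen, are given beside the results of the 10 genes, and for the other gene lists after their counts. Krt6a was then at -4.06 and -4.37 and its interaction was not called (-0.31, edgeR adjusted p 0.213), and 1 squamous marker was higher and 7 lower in each line.

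In the annotation the 10 genes lie on 7 chromosomes of the mouse build GRCm38, and 4 of them, Mmp13, Mmp12, Mmp3 and Mmp10, share a cluster of 10 Mmp genes within 427 kb of chromosome 9. Mmp13 lies at chr9:7272514-7283331, Mmp12 at chr9:7344381-7369499, Mmp3 at chr9:7445822-7455975 and Mmp10 at chr9:7502352-7510240, all on the plus strand. The 6 other genes of the cluster (Mmp1b, Mmp1a, Mmp8, Mmp27, Mmp20 and Mmp7) had too few counts to be tested. Their highest count in a library was 13, for Mmp7, and Mmp8 and Mmp27 had 0 counts everywhere. Mmp2 is at chr8:92827291-92853420, Mmp9 at chr2:164940780-164955850, Mmp14 at chr14:54431612-54445364, Timp1 at chrX:20870166-20874735, Timp2 at chr11:118301069-118355740 (minus strand) and Timp3 at chr10:86300372-86349506. Mmp12 and Timp3 overlap exons of Mmp1b and Syn3 on the opposite strand. Whether counting used strand is not given in the sources used here, but Mmp1b was assigned at most 12 and Syn3 at most 113 counts in a library.

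The promoters of the 4 clustered genes are printed because Mmp13, Mmp12 and Mmp10 passed the test as higher under paclitaxel in both lines, Mmp3 shares their cluster, and all 4 carry the binding motif of the transcription factor AP-1, a regulator of several MMP genes. The 130 bases before each transcription start are given 5′ to 3′ on the plus strand (RefSeq, GRCm38.p6), with the AP-1 motif TGAGTCA in capitals, or TGACTCA where it is on the opposite strand. The windows are chr9:7272384-7272513 for Mmp13, chr9:7347244-7347373 for the downstream start of Mmp12, chr9:7445692-7445821 for Mmp3 and chr9:7502212-7502341 for Mmp10. Timp1, at chrX:20870036-20870165, is printed for comparison, as the inhibitor that was lower under the drug in both lines, and holds no such motif.
Mmp13: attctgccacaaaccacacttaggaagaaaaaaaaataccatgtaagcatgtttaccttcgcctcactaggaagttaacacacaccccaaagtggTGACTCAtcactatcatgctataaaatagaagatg
Mmp12: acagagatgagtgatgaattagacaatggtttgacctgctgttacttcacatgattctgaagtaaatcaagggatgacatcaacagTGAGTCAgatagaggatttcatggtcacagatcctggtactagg
Mmp3: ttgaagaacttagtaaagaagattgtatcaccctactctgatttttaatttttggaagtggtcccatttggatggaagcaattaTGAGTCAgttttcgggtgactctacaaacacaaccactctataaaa
Mmp10: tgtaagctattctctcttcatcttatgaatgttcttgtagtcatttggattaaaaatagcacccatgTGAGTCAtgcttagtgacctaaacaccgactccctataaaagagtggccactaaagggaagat
Timp1: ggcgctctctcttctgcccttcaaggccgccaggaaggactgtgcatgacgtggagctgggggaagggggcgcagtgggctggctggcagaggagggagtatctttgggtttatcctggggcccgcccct
The motif began 35 bases before the start in Mmp13, 44 in Mmp12, 46 in Mmp3 and 63 in Mmp10, counted from the RefSeq starts. The letters TATAAA began 16, 7 and 29 bases before the start in Mmp13, Mmp3 and Mmp10, and at base 5 after it in Mmp12. Whether the starts are placed alike was not tested. RefSeq gave 9 promoter windows of 300 bases (250 before and 50 after the start) for 8 of the 10 genes, all but Mmp2 and Mmp9. On either strand, TGAGTCA was found in 4 of the 9, against 5.20% of 32851 mouse promoter windows of that length. These 4 windows belong to neighbouring genes of a single cluster and are not independent, and the motif was searched as that of a known regulator. No enrichment was tested. The upstream Mmp12 window and those of Mmp14, Timp1, Timp2 and Timp3 did not hold these letters. The RUNX motif AACCACA, in 5.27% of all windows, was found once, 119 bases before the start of Mmp13. TATAAA was in 4 of the 9 (13.6% of all), GGGCGG in 4 (35.7%) and AGGAAG in 6 (35.4%), and none of these motifs overlapped TGAGTCA. A match is a description of the letters and not of binding.

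Paclitaxel against DMSO was compared within each EV label to see how the drug changed these genes. The secreted proteases Mmp9, Mmp10, Mmp12 and Mmp13 rose in both lines, as labelled from 1.68-fold (Mmp10, labelled EV-proficient) to 22.9-fold (Mmp13, labelled EV-deficient), Timp1 fell in both, and the abundant Mmp14 and Timp2 moved by at most 1.3-fold. With the EV-proficient label 8 of the 10 genes passed the threshold (edgeR quasi-likelihood test, Benjamini-Hochberg adjusted p under 0.05 over all genes), 6 higher and 2 lower. Of all 18108 genes tested, 58.2% passed in that comparison, 31.1% higher and 27.1% lower. In the cells labelled EV-deficient 9 of the 10 passed, 7 higher and 2 lower, against 62.9% of all genes, 32.4% higher and 30.5% lower (40.5% and 23.4% with upper-quartile scaling). Without Mmp3, 8 of the 9 genes that also passed the filter on DMSO libraries alone were called in each line, 6 higher and 2 lower. The counts of the 10 genes are read against this high background. With the paclitaxel labels exchanged, 9 of the 10 passed in each line, against 61.4% and 56.9% of all genes, and Mmp9, Mmp10, Mmp12 and Mmp13 were still called as higher and Timp1 as lower in both. The rises of these proteases then ran from 0.84 (Mmp10, EV-deficient label) to 3.48 (Mmp13, EV-proficient label, log2). Timp3 changed direction in both lines, to 0.38 with the EV-proficient and -0.72 with the EV-deficient label (log2; edgeR adjusted p 0.0138 and 7.25e-05). The median log2 fold change of the 10 genes was 0.86 and 1.34, where the median of all genes tested was 0.05 and 0.07. Without Mmp3 the middle value was 0.75 (Mmp10) with the EV-proficient and 0.70 (Mmp2) with the EV-deficient label. The larger median with the EV-deficient label was therefore not kept without Mmp3. With the paclitaxel labels exchanged the medians of the 10 genes were 1.15 and 0.89. In each comparison the libraries of drug and control did not overlap for 8 of the 10, as for 62.3% and 68.7% of all genes. In bulk RNA, fewer cells making a transcript and less transcript per cell cannot be told apart.

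**Figure D1:**
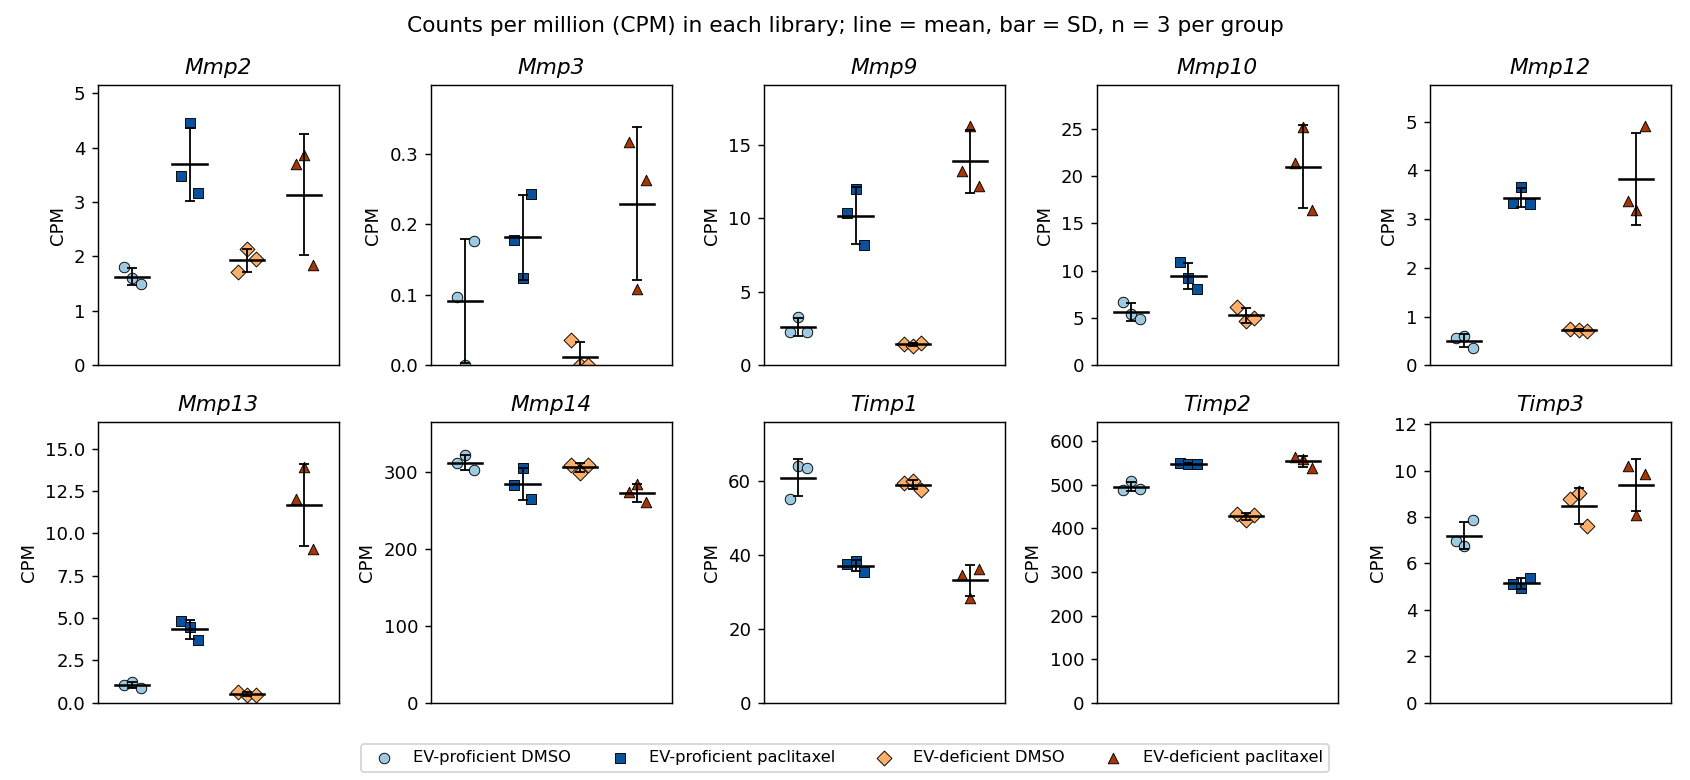
Level of each gene in the 12 libraries in CPM, on a linear axis that starts at 0 and has its own range for each gene; points are libraries, lines are group means and bars are SD (n = 3). Mmp9, Mmp10, Mmp12 and Mmp13 lie higher in every paclitaxel library than in any DMSO library, and Timp1 lies lower.

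Mmp13 (ENSMUSG00000050578), the main interstitial collagenase of the mouse, rose from the lowest group mean to the highest with the EV-deficient label. Library values are listed in the order of replicates 1, 2 and 3. Mmp13 was at 1.02, 1.2 and 0.878 CPM in EV-proficient DMSO and at 4.82, 4.48 and 3.72 CPM in EV-proficient paclitaxel libraries. It was at 0.625, 0.438 and 0.439 CPM in EV-deficient DMSO and at 12, 13.9 and 9.07 CPM in EV-deficient paclitaxel libraries. The 4 groups did not overlap one another, with EV-deficient cells at both ends. The log2 fold change under paclitaxel was 2.07 ± 0.21 (SE; edgeR adjusted p 2.51e-08) with the EV-proficient label and 4.52 ± 0.22 (SE; edgeR adjusted p 2.83e-13) in those labelled EV-deficient. Exchanged paclitaxel labels gave 3.48 and 3.11 (log2; edgeR adjusted p 8.85e-12 and 1.91e-10), so the rise held in both lines while its order turned.

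The stromelysins Mmp10 and Mmp3 lie in the same cluster and differed widely in level. Mmp10 (ENSMUSG00000047562), stromelysin 2, was at 6.65, 5.41 and 4.86 CPM in EV-proficient DMSO and at 10.9, 9.28 and 8.09 CPM in EV-proficient paclitaxel libraries. The EV-deficient values were 6.17, 4.69 and 4.98 CPM with DMSO and 21.4, 25.2 and 16.4 CPM with paclitaxel. The DMSO groups overlapped each other, and both paclitaxel groups lay above them. Mmp10 rose by 0.75 ± 0.16 (log2, SE; edgeR adjusted p 0.00054) and by 1.98 ± 0.16 (log2, SE; edgeR adjusted p 6.29e-10) with the EV-proficient label and EV-deficient. This order turned as well under the exchange, which gave 1.89 and 0.84 (log2; edgeR adjusted p 2.12e-09 and 0.000149). Mmp3 (ENSMUSG00000043613), stromelysin 1, was close to the detection floor, with 4, 0 and 6 counts in EV-proficient DMSO, 9, 7 and 6 in EV-proficient paclitaxel, 2, 0 and 0 in EV-deficient DMSO and 17, 5 and 16 counts in EV-deficient paclitaxel libraries. All EV-deficient DMSO libraries were under the floor of 3 counts. Mmp3 reached the filter's cutoff of 0.209 CPM in 0 of the 6 DMSO and 3 of the 6 paclitaxel libraries, so it was tested only because of the groups in which it was high, and its call supports nothing further. From 2 counts in all to 38, the depth-corrected ratio in the cells labelled EV-deficient was 17.7 (95% exact interval 4.57 to 151, counting error only), and edgeR called it (adjusted p 0.00405). The fitted log2 fold change of 3.89 rests on few counts, and without EV-deficient DMSO replicate 1, the only control library of that line with any, it was 6.41 and still called. For the EV-proficient label the ratio was 1.95 (0.885 to 4.61) and a difference was not detectable at this depth. Under the exchange the fitted values of Mmp3 were 1.37 (EV-proficient, edgeR adjusted p 0.184) and 3.49 (EV-deficient, edgeR adjusted p 0.0129).

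The gelatinases did not move alike. Mmp9 (ENSMUSG00000017737), gelatinase B, was at 2.24, 3.3 and 2.25 CPM in EV-proficient DMSO and at 10.4, 12 and 8.17 CPM in EV-proficient paclitaxel libraries. It was at 1.45, 1.31 and 1.51 CPM in EV-deficient DMSO and at 13.2, 16.3 and 12.2 CPM in EV-deficient paclitaxel libraries. No pair of groups overlapped, and as for Mmp13 the lowest and the highest group were both labelled EV-deficient. The rise was 1.97 ± 0.18 (log2, SE; edgeR adjusted p 4.23e-09) with the EV-proficient label and 3.28 ± 0.18 (log2, SE; edgeR adjusted p 2.19e-12) in those labelled EV-deficient, against 2.41 and 2.85 with exchanged labels (edgeR adjusted p 1.81e-10 and 4.75e-11). Mmp2 (ENSMUSG00000031740), gelatinase A, was at 1.8, 1.6 and 1.49 CPM in EV-proficient DMSO and 3.48, 4.45 and 3.16 CPM in EV-proficient paclitaxel libraries, which did not overlap. With the EV-deficient label it was at 1.71, 2.13 and 1.95 CPM in DMSO and 3.69, 3.87 and 1.85 CPM in paclitaxel libraries, which overlapped because paclitaxel replicate 3 was as low as the controls. Mmp2 rose by 1.18 ± 0.25 (log2, SE; edgeR adjusted p 0.000374) and 0.70 ± 0.24 (log2, SE; edgeR adjusted p 0.0171). The second call was lost with limma-voom (adjusted p 0.0546) and without EV-deficient DMSO replicate 1 (0.60), EV-deficient paclitaxel replicate 1 (0.54) or EV-deficient paclitaxel replicate 2 (0.52). Exchanged labels gave 0.93 and 0.95 for Mmp2 (log2; edgeR adjusted p 0.00293 and 0.00232).

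Mmp12 (ENSMUSG00000049723), the macrophage elastase, was low but rose by similar factors in both lines. It was at 0.56, 0.598 and 0.351 CPM in EV-proficient DMSO and at 3.34, 3.66 and 3.32 CPM in EV-proficient paclitaxel libraries. In EV-deficient libraries it was at 0.749, 0.73 and 0.702 CPM with DMSO and 3.37, 3.18 and 4.91 CPM with paclitaxel. Every paclitaxel library exceeded every DMSO library, and the 2 paclitaxel groups overlapped. The log2 fold change was 2.75 ± 0.26 (SE; edgeR adjusted p 9.33e-09) with the EV-proficient label and 2.39 ± 0.24 (SE; edgeR adjusted p 1.8e-08) in those labelled EV-deficient, and 2.91 and 2.24 with exchanged labels (edgeR adjusted p 3.44e-09 and 8.51e-08). Since macrophages also make Mmp9 and Mmp12, markers of macrophages and neutrophils were read beside them. With the EV-proficient label their summed level was 17 to 19.2 CPM under DMSO and 75.4 to 81.9 CPM under paclitaxel, and with the EV-deficient label 31.4 to 31.9 and 56.3 to 85.6 CPM. Of the 10 markers 5 were tested, 4 of them higher in the cells labelled EV-proficient, and 2 higher and 1 lower in those labelled EV-deficient, which became 5 and 2 higher and 0 lower with the paclitaxel labels exchanged. The sum came mainly from Cd14 (a mean of 22.5 CPM over all libraries), Cd68 (18.6) and Csf1r (7.58). As labelled, Cd14 rose by 1.79 and 1.77 and Cd68 by 2.22 and 1.92 with the EV-proficient and EV-deficient label (log2). Csf1r rose by 3.63 with the EV-proficient and fell by 1.22 with the EV-deficient label (log2). Among the other markers, Adgre1, Lyz2, Itgam and Csf3r reached at most 4, 7, 12 and 5 counts in a library, S100a9 at most 3, and Ptprc averaged 0.766 CPM. The 7 fibroblast markers (5 tested) summed to 1.17 to 2.72 CPM in DMSO and 5.02 to 7.43 CPM in paclitaxel libraries, with 3 higher and 0 lower in each line (4 and 3 higher with exchanged labels), and the 5 endothelial markers (4 tested) to 1.88 to 2.87 CPM and 2.96 to 4.46 CPM. The part of these markers in the result was not tested.

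Mmp14 (ENSMUSG00000000957), the membrane-type 1 enzyme, was the only one of the 7 proteases above 25.2 CPM in any library, and it did not rise. It was at 312, 323 and 303 CPM in EV-proficient DMSO and at 283, 306 and 265 CPM in EV-proficient paclitaxel libraries, which overlapped. The EV-deficient values were 310, 299 and 310 CPM with DMSO and 274, 285 and 261 CPM with paclitaxel, without overlap. The log2 differences were -0.13 ± 0.06 (SE; edgeR adjusted p 0.0656) and -0.17 ± 0.06 (SE; edgeR adjusted p 0.0221). The direction of the second depends on scaling, since it was 0.02 (edgeR adjusted p 0.789) with upper-quartile scaling. That call was also lost with a filter of 1 CPM (adjusted p 0.116) and without EV-deficient DMSO replicate 1 (-0.17) or EV-deficient paclitaxel replicate 3 (-0.14). The first was called by DESeq2 (-0.16, adjusted p 0.0208), with median-of-ratios scaling, and without EV-proficient paclitaxel replicate 1 (-0.18) or 2 (-0.24) or any EV-deficient paclitaxel library (-0.18 each). The exchange of labels swapped both calls, to -0.19 (edgeR adjusted p 0.00841) with the EV-proficient and -0.10 (edgeR adjusted p 0.153) with the EV-deficient label.

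The 3 inhibitors went different ways. Timp1 (ENSMUSG00000001131) was at 55, 63.9 and 63.4 CPM in EV-proficient DMSO and 37.5, 38.2 and 35.4 CPM in EV-proficient paclitaxel libraries. With the EV-deficient label it was at 59.3, 59.8 and 57.5 CPM in DMSO and 34.5, 28.4 and 36.2 CPM in paclitaxel libraries. All 6 paclitaxel libraries were below all 6 DMSO libraries, and within each treatment the EV labels overlapped. Timp1 fell by 0.71 ± 0.08 (log2, SE; edgeR adjusted p 2.33e-07) and 0.83 ± 0.08 (log2, SE; edgeR adjusted p 1.5e-08), to 0.611 and 0.562 of the DMSO level. Exchanged labels gave -0.88 and -0.67 (log2; edgeR adjusted p 9.24e-09 and 6.32e-07).

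Timp2 (ENSMUSG00000017466) had the highest count level of the 10 genes. It was at 489, 509 and 491 CPM in EV-proficient DMSO and 550, 547 and 549 CPM in EV-proficient paclitaxel libraries. The EV-deficient values were 434, 419 and 430 CPM with DMSO and 564, 560 and 540 CPM with paclitaxel. The EV-deficient DMSO libraries were lowest and both paclitaxel groups lay above all controls. The rise was 0.37 ± 0.05 (log2, SE; edgeR adjusted p 1.66e-06) in the cells labelled EV-deficient and 0.14 ± 0.05 (log2, SE; edgeR adjusted p 0.0207) in those labelled EV-proficient. Leaving out 1 library at a time, 8 of 12 fits did not call the smaller change. It was 0.13 without EV-proficient DMSO replicate 1 or 3, 0.09 to 0.10 without any of the EV-proficient paclitaxel libraries, and 0.10 without any of the EV-deficient paclitaxel libraries. Under the exchange the rises were 0.36 with the EV-deficient and 0.16 with the EV-proficient label (log2; edgeR adjusted p 4.13e-06 and 0.0106).

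Timp3 (ENSMUSG00000020044), an inhibitor that stays bound to the matrix, was at 6.97, 6.75 and 7.87 CPM in EV-proficient DMSO and 5.12, 4.92 and 5.38 CPM in EV-proficient paclitaxel libraries. With the EV-deficient label it was at 8.76, 9.05 and 7.59 CPM in DMSO and 10.2, 8.09 and 9.84 CPM in paclitaxel libraries. The EV-proficient paclitaxel group stood below the other 3 groups, while both EV-deficient groups overlapped. Timp3 fell by 0.49 ± 0.13 (log2, SE; edgeR adjusted p 0.00354) with the EV-proficient label. With the EV-deficient label the difference was 0.15 ± 0.13 (log2, SE; edgeR adjusted p 0.328), which upper-quartile scaling called (0.33, adjusted p 0.0282).

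**Figure D2:**
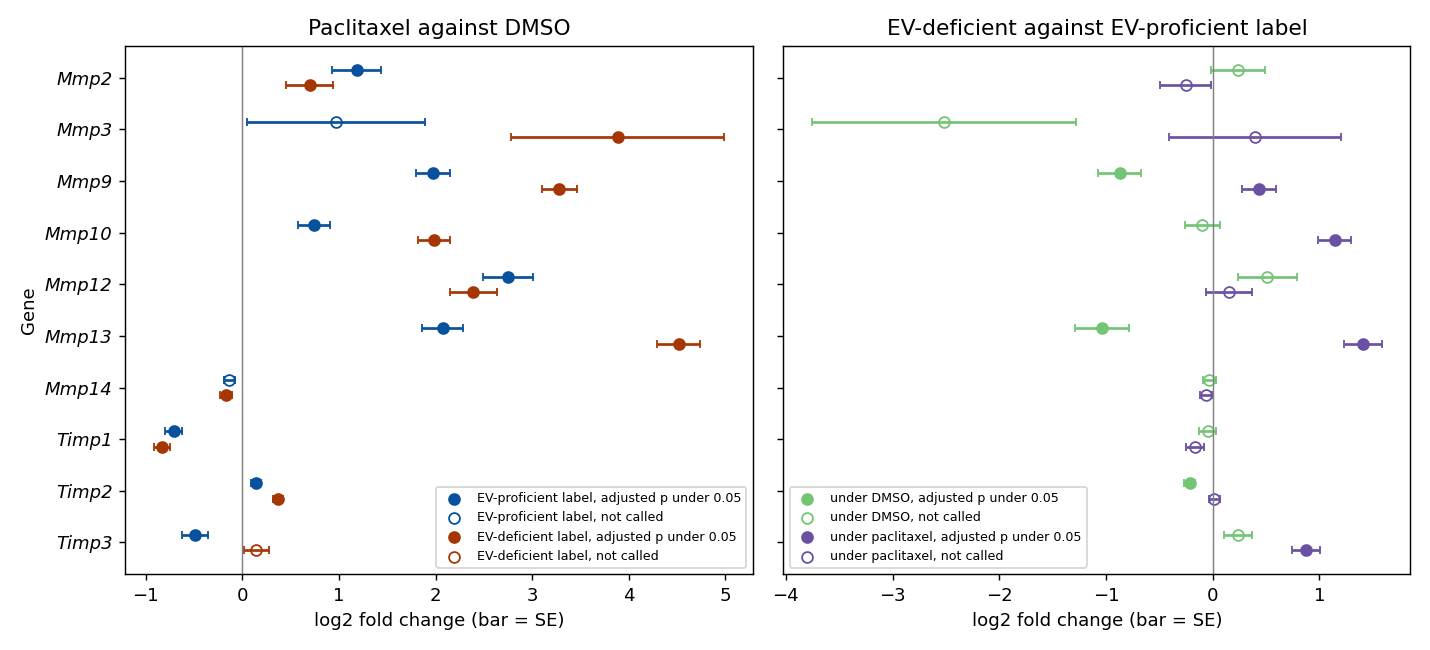
Log2 fold changes with SE for each gene, paclitaxel against DMSO within each EV label (left) and the EV-deficient against the EV-proficient label within each treatment (right); filled points had an edgeR adjusted p under 0.05. As labelled, the paclitaxel effects of Mmp9, Mmp10 and Mmp13 lie further right in EV-deficient cells, and with the paclitaxel labels exchanged this holds for Mmp9 alone of these 3. As labelled, Mmp9 and Mmp13 lie on opposite sides of 0 between DMSO and paclitaxel in the right panel.

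Whether the paclitaxel effect differed between the EV labels was tested as an interaction, in which a positive value means a larger or less negative effect with the EV-deficient label. Of the 10 genes 5 passed the threshold, all positive, against 40.7% of all genes tested (16.9% positive and 23.8% negative, but 21.2% and 18.1% with upper-quartile scaling). The median over the 10 genes was 0.43, and over all genes -0.04. Without Mmp3 the middle value was 0.23, that of Timp2. With the paclitaxel labels exchanged the median over the 10 genes was 0.05. Of these 5 the collagenase Mmp13 differed most, by 2.44 ± 0.31 (log2, SE; edgeR adjusted p 1.57e-06), followed by Mmp9 at 1.31 ± 0.25 (SE; edgeR adjusted p 0.000253) and Mmp10 at 1.24 ± 0.23 (SE; edgeR adjusted p 0.00016). Timp3, which had fallen with the EV-proficient label alone, had an interaction of 0.63 ± 0.18 (log2, SE; edgeR adjusted p 0.00835). That of Timp2 was 0.23 ± 0.07 (log2, SE; edgeR adjusted p 0.0148). It was not called without the low-count filter (0.16, adjusted p 0.259), nor without EV-proficient DMSO replicate 2 (0.20), EV-deficient DMSO replicate 2 (0.20) or EV-deficient DMSO replicate 3 (0.22). No difference in response passed the test for Mmp12 (-0.36 ± 0.35 SE, edgeR adjusted p 0.455), Timp1 (-0.12 ± 0.12 SE, edgeR adjusted p 0.451), Mmp2 (-0.49 ± 0.35 SE, edgeR adjusted p 0.293) or Mmp14 (-0.03, edgeR adjusted p 0.807). Mmp3 had too few counts for its response to be compared (edgeR adjusted p 0.126). These interactions depend on which paclitaxel libraries belong to which line. With those labels exchanged, 2 of the 10 genes passed, both negative, against 9.60% of all genes (6.20% positive and 3.41% negative): Mmp10 at -1.05 ± 0.23 (log2, SE; edgeR adjusted p 0.00632) and Timp3 at -1.11 ± 0.18 (SE; edgeR adjusted p 0.000718). Mmp13 was then at -0.37 ± 0.31 (SE; edgeR adjusted p 0.496), Mmp9 at 0.43 ± 0.25 (SE; edgeR adjusted p 0.303) and Timp2 at 0.20 ± 0.07 (SE; edgeR adjusted p 0.0898), none of them called. An exchange of the DMSO labels instead, which was not run, would turn the sign of each of these exchanged interactions by construction.

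The EV labels were then compared within each treatment. With DMSO, 3 of the 10 genes were lower in the libraries labelled EV-deficient and 0 were higher, against 23.0% of all genes called (12.4% higher and 10.6% lower). The libraries of the labels did not overlap for 4 of the 10, as for 43.3% of all genes. The 3 genes were Mmp13 (log2 difference -1.04 ± 0.25 SE, edgeR adjusted p 0.00428), Mmp9 (-0.87 ± 0.20 SE, edgeR adjusted p 0.00236) and Timp2 (-0.21 ± 0.05 SE, edgeR adjusted p 0.0039). The Mmp13 call was lost with limma-voom (adjusted p 0.118) and that of Timp2 without the low-count filter (adjusted p 0.0692). The elastase Mmp12 lay higher in each EV-deficient DMSO library, but its difference of 0.51 ± 0.28 (log2, SE; edgeR adjusted p 0.212) did not pass.

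With paclitaxel, 4 of the 10 genes were higher in the libraries labelled EV-deficient and 0 were lower, against 37.8% of all genes called (16.0% higher and 21.8% lower, but 21.8% and 15.7% with upper-quartile scaling). The labels did not overlap for 4 of the 10 and for 44.1% of all genes. Mmp13 was 1.41 ± 0.18 higher (log2, SE; edgeR adjusted p 2.74e-06), Mmp10 1.14 ± 0.16 (SE; edgeR adjusted p 6.87e-06) and Timp3 0.87 ± 0.13 (SE; edgeR adjusted p 2.25e-05). Mmp9 was 0.44 ± 0.16 higher (log2, SE; edgeR adjusted p 0.0343), a call lost without EV-proficient paclitaxel replicate 1 (0.44) or 3 (0.30) or EV-deficient paclitaxel replicate 1 (0.46) or 2 (0.32). Timp1, at -0.17 (edgeR adjusted p 0.127), was called without EV-deficient paclitaxel replicate 3 (-0.24, adjusted p 0.0473). As labelled, Mmp13 and Mmp9 had differences of opposite sign with DMSO and with paclitaxel, the treatments between which the dngfr level also changed order. With the paclitaxel labels exchanged every difference under paclitaxel takes the opposite sign, so that Mmp13 would be lower with the EV-deficient label in both treatments (-1.04 with DMSO and -1.41 with paclitaxel), as would Mmp9 (-0.87 and -0.44). With the DMSO labels exchanged instead, the differences under DMSO would take the opposite sign. Mmp13 and Mmp9 would then be higher with the EV-deficient label in both treatments. The change of sign for these genes and an exchange of labels cannot be told apart. The median difference of the 10 genes was -0.07 with DMSO (0.04 over all genes) and 0.28 with paclitaxel (0.00 over all genes). Without Mmp3 the middle values were -0.05 (Timp1) and 0.15 (Mmp12). These comparisons and the paclitaxel effects share libraries and are not independent of one another.

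Levels of different genes were compared per length, as CPM per kilobase of annotated exon. Timp2 was highest in every group, at 128, 141, 110 and 143 CPM per kb in EV-proficient DMSO, EV-proficient paclitaxel, EV-deficient DMSO and EV-deficient paclitaxel libraries. In that order of groups, Timp1 was at 68.4, 41.7, 66.3 and 37.2 and Mmp14 at 52.4, 47.8, 51.4 and 45.9 CPM per kb. Timp1 thus ranked next to Timp2 with DMSO and below Mmp14 with paclitaxel, and their libraries did not overlap in any group. Mmp10 followed as the next gene in every group, at 3.27, 5.47, 3.06 and 12.2 CPM per kb, and the other 6 genes averaged at most 4.36 CPM per kb in any group. Mmp13 rose from eighth place in both DMSO groups to the sixth with the EV-proficient and the fifth with the EV-deficient label. Neighbours in the order overlapped for Timp3 and Mmp9, Mmp2 and Mmp13, and Mmp12 and Mmp3 in EV-proficient DMSO libraries. In EV-deficient paclitaxel libraries Mmp13 overlapped Mmp9, and Mmp2 overlapped both Timp3 and Mmp12, and in the other groups no neighbours overlapped.

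**Figure D3:**
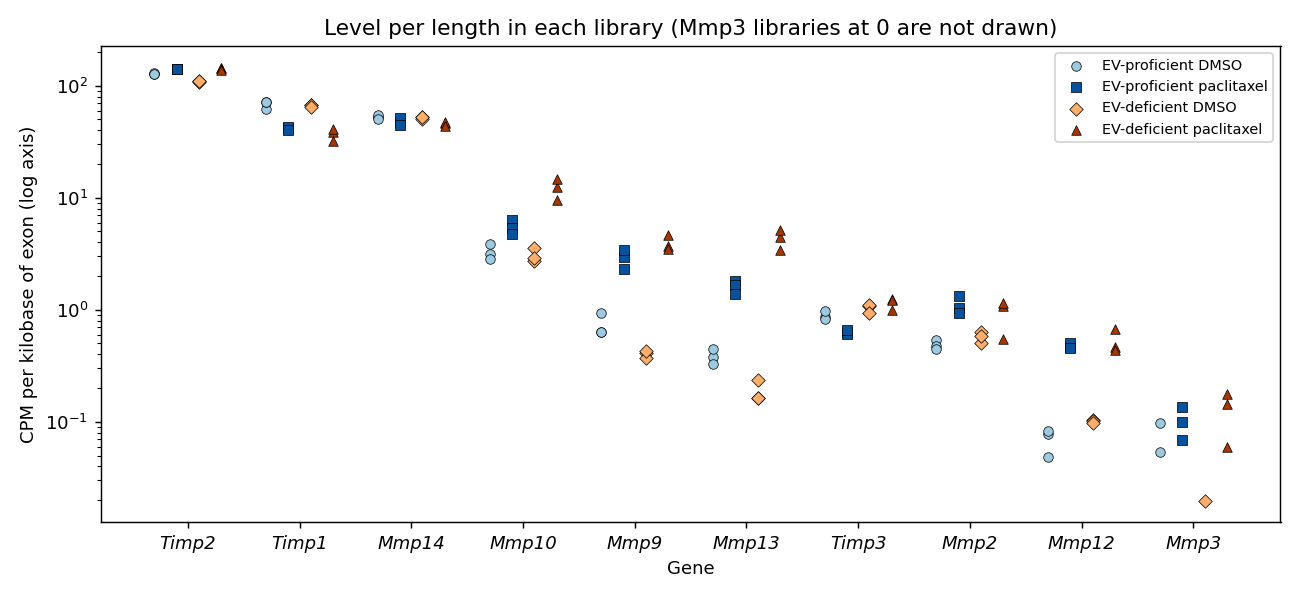
Level per length of the 10 genes in each library, in CPM per kilobase of exon on a log axis, with genes ordered by their mean over all libraries. Timp2, Timp1 and Mmp14 lie at 32.0 CPM per kb or more in every library, and the secreted proteases Mmp10, Mmp9 and Mmp13 are higher with paclitaxel.

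Summed per length, the 6 secreted proteases stood at 5.00 ± 0.589 CPM per kb in EV-proficient DMSO and 11.7 ± 1.52 in EV-proficient paclitaxel libraries (SD, n = 3). They stood at 4.33 ± 0.455 in EV-deficient DMSO and 22.1 ± 4.21 CPM per kb in EV-deficient paclitaxel libraries. As a share of the 7 proteases this was 7.92% to 9.58% and 7.36% to 8.54% with DMSO, 18.2% to 21% in EV-proficient paclitaxel and 28.8% to 35.3% in EV-deficient paclitaxel libraries. The secreted share was therefore higher in every paclitaxel library than in any DMSO library, and Mmp14 still made up most of the signal of these 7 proteases. Other Mmp genes, among them Mmp11 (described below), are not in these sums. The 3 inhibitors summed to 197 ± 7.55, 183 ± 1.15, 177 ± 1.73 and 181 ± 4.0 CPM per kb in EV-proficient DMSO, EV-proficient paclitaxel, EV-deficient DMSO and EV-deficient paclitaxel libraries (SD, n = 3). Within that sum Timp1 held 32.8% to 38.1% in DMSO and 18.1% to 23.4% in paclitaxel libraries, so the make-up of the inhibitors moved more than their total. Mmp14 and Timp2 together held 69.2% to 77.8% of the signal of all 10 genes as group means.

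**Figure D4:**
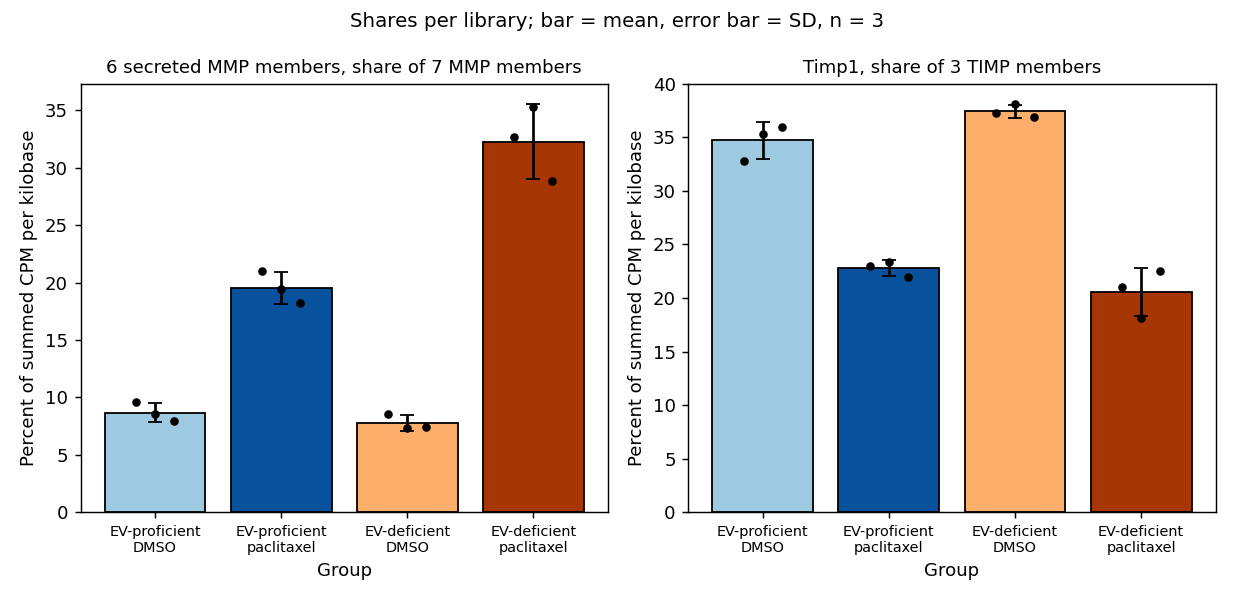
Share of the 6 secreted proteases in the summed level of the 7 proteases (left) and of Timp1 in the summed level of the 3 inhibitors (right), in percent of CPM per kilobase; bars are means, error bars SD and points the 3 libraries of a group. The left share is 7.36% to 9.58% with DMSO and 18.2% to 35.3% with paclitaxel, and the right share falls from at least 32.8% to at most 23.4%.

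Among 16 other Mmp genes, 8 were tested and 4 were at the floor in every library. With paclitaxel 4 of the 8 were higher and 1 lower in the cells labelled EV-proficient, and 6 higher and 1 lower in those labelled EV-deficient, with medians of 0.81 and 1.49. Among all genes 31.1% were higher and 27.1% lower with the EV-proficient label, and 32.4% and 30.5% with the EV-deficient label. The list counts that follow are read against these shares. Mmp11, stromelysin 3, rose from a mean of 5.65 to 24 CPM and from 6.88 to 19.2 CPM (log2 2.09 ± 0.11 and 1.48 ± 0.11, SE; edgeR adjusted p 1.71e-12 and 9.11e-11), with an interaction of -0.61 ± 0.15 (SE; edgeR adjusted p 0.00256). With the paclitaxel labels exchanged its effects were 1.76 and 1.81 and the interaction was 0.04 (edgeR adjusted p 0.897), so the order of its effects depends on the labels. Of 4 other inhibitors only Reck, a membrane-anchored MMP inhibitor, was tested, and, named here after its values were seen, it rose from 0.193 to 1.27 CPM with the EV-deficient label (log2 2.73 ± 0.46 SE; edgeR adjusted p 2.49e-05). For the EV-proficient label it was at 0.468 and 0.547 CPM (log2 0.17 ± 0.45 SE; edgeR adjusted p 0.766) and was not called. Reck was called in both lines with the paclitaxel labels exchanged (1.44 and 1.46, log2; edgeR adjusted p 0.00619 and 0.0137). Of 9 tested genes of 11 that activate the proenzymes, 3 were higher and 4 lower with the EV-proficient label, against 3 and 5 with the EV-deficient label. The plasminogen activator Plat rose by 0.75 and 2.44 and the urokinase receptor Plaur fell (-1.45 and -2.10, log2). All 6 genes for surface anchoring and clearance were tested, and in each line 3 rose and 2 fell. Lrp1, an endocytic receptor that clears MMP9 and MMP13, rose by 2.30 and 0.57 (log2). Lrp2, a related endocytic receptor, rose by 1.58 with the EV-proficient and fell by 2.71 with the EV-deficient label (log2), an interaction of -4.29 ± 0.16 (SE; edgeR adjusted p 6.49e-15). With the paclitaxel labels exchanged the rise was lost (0.03, edgeR adjusted p 0.82), the fall was -1.17 and the interaction -1.20 (edgeR adjusted p 5.78e-05).

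Of 14 ADAM and ADAMTS proteases 13 were tested, with 5 higher and 6 lower in the cells labelled EV-proficient and 7 higher and 4 lower in those labelled EV-deficient. Counts under the drug are read against the shares of all genes. These were 31.1% higher and 27.1% lower with the EV-proficient label, and 32.4% and 30.5% with the EV-deficient label. The aggrecanase Adamts4 rose by 3.04 and 3.56 (log2). Of 16 matrix substrates 15 were tested, with 5 higher and 4 lower with the EV-proficient label, against 4 and 8 with the EV-deficient label. Spp1, osteopontin, rose by 2.25 and 1.96, and Tnc, tenascin C, rose by 1.55 with the EV-proficient and fell by 4.25 with the EV-deficient label (log2). Tnc fell in both lines with the paclitaxel labels exchanged (-1.19 and -1.51, log2; edgeR adjusted p 3.08e-08 and 2.86e-10). Of 14 AP-1, ETS and RUNX transcription factors, 9 were higher and 3 lower in the cells labelled EV-proficient, and 4 higher and 5 lower in those labelled EV-deficient. Fos rose by 1.60 and 1.16 and Junb by 1.47 and 0.78, while Fosl1 fell by 1.53 (log2) with the EV-deficient label and was not called with the other (-0.07, edgeR adjusted p 0.692). Fosl1 fell in both lines with the paclitaxel labels exchanged (-1.05 and -0.55, log2; edgeR adjusted p 8.61e-07 and 0.00116). As labelled, of the changes named in these lists as rises or falls, the largest edgeR adjusted p was 0.000724, that of Junb with the EV-deficient label. In the interaction 1 of these 14 factors was positive and 9 negative, against 16.9% and 23.8% of all genes. The other interaction counts, positive and negative, were 1 and 2 of the 8 other Mmp genes, 3 and 4 of the 9 activators, 2 and 3 of the 6 anchoring and clearance genes, 6 and 4 of the 13 ADAM and ADAMTS genes, and 2 and 7 of the 15 substrates. Between the EV labels with DMSO, the counts higher and lower with the EV-deficient label were 1 and 0, 3 and 3, 3 and 2, 3 and 6, and 7 and 2 in the same order of lists, and 6 and 2 of the 14 transcription factors, against 12.4% and 10.6% of all genes. With paclitaxel they were 1 and 1, 2 and 4, 1 and 2, 7 and 3, and 4 and 6, and 2 and 8 of the transcription factors, against 16.0% and 21.8% of all genes. With the paclitaxel labels exchanged the latter counts swap sides. The interaction counts in that order of lists then became 0 and 0, 3 and 0, 1 and 3, 1 and 1, and 2 and 1, and 2 and 1 for the transcription factors, against 6.20% and 3.41% of all genes. The counts higher and lower under the drug became 6 and 1, 2 and 6, 3 and 2, 6 and 4, 5 and 7, and 6 and 4 with the EV-proficient label. With the EV-deficient label they became 6 and 1, 2 and 4, 2 and 2, 6 and 3, 3 and 7, and 9 and 4. Shares of all genes under this exchange were 32.6% higher and 28.8% lower with the EV-proficient label, and 30.1% and 26.8% with the EV-deficient label. Plat rose by 1.67 and 1.52 and Adamts4 by 3.66 and 2.93 (log2). Lrp1 (1.84 and 1.03), Spp1 (2.25 and 1.96), Fos (1.32 and 1.44) and Junb (1.04 and 1.20) still rose and Plaur (-1.76 and -1.79) still fell in both lines, and for Plat, Adamts4, Fos and Junb the other line then had the larger value.

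For the 6 genes with a mean of at least 5 CPM, the genes with the most similar profile were found by Pearson correlation of log2 CPM over the 12 libraries, among 9885 genes. These were Rab3d (0.994) and Mapk3 (0.993) for Mmp9, Stk38 (0.987) for Mmp10, and Wwp2 and Eif6 (0.992 each) for Timp1. For Timp2 they were Rcan3 (0.986) and Enpp1 (0.984), for Timp3 Cd109 (0.923) and mt-Rnr2 (0.920), and for Mmp14 Wrap73 (0.933) and Erbb2 (0.930). Since all 12 libraries share the split by treatment, high values are common, and these are descriptions only.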

How the data were processed

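RNA from 12 libraries of MOC2 cells was measured in 4 groups of 3. The authors deposited 1 table of raw read counts per gene, not normalized. Libraries were stranded and selected for polyadenylated RNA, per the labels' protocols. STAR 2.5.0a and the build GRCm38 are named in the submitters' processing notes. The counting program, the annotation release and the use of strand are not given in the sources used here. Columns were matched to samples through the sample descriptions, and 0 columns of other samples were present. The 2 rows added by the authors (gfp, at 0 counts, and dngfr, at most 0.00142% of a library) were left out of library sizes and tests, and 3995 of the 55421 genes have no symbol.

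The tests ran in edgeR 4.0.16 under R 4.3.3. Its filterByExpr function, at a minimum count of 10, kept 18108 of 35104 genes with any count. Scaling used trimmed means (TMM, factors 0.890 to 1.15), and all 12 libraries entered a single quasi-likelihood fit of group means without covariates (common dispersion 0.00956). The 5 comparisons were adjusted by Benjamini-Hochberg over all genes, with a threshold of 0.05. SE was taken as log2 fold change over the root of the F statistic. CPM values use the scaled library sizes. The prior count of log2 CPM for similar profiles was 2. Of the genes of similar profile, 1 is not reported here. The floor is 3 counts. Reads carry no molecular identifiers and are not independent molecules, so floors and intervals hold counting error alone. The test was first tested on simulated counts.

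The 10 genes and the gene lists were chosen with earlier results of these data known. From each list at most 3 genes per comparison were named, those with the largest change past the threshold and a mean of at least 5 CPM, and some of these are given only as counts. As alternatives, scaling was done by median of ratios or upper quartile, the low-count filter was dropped or set to 1 CPM in at least 3 libraries, and limma-voom (limma 3.58.1) or DESeq2 1.42.0 replaced edgeR. Further fits used a replicate block, the compared groups alone, or left out 1 library at a time. Exchanging the EV labels of the paclitaxel libraries was added after the data were seen. Replicates differed by more than sampling noise in all 12 within-group pairs (chi-square per degree of freedom 4.20 to 31.1). Positions and exon lengths are from a GENCODE annotation of GRCm38 given for this work, and promoters from RefSeq (GRCm38.p6).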

Additional observations from a re-analysis of the deposited data

Results flagged for a closer look

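The response to paclitaxel differed between the EV labels, by the test of the interaction, for 5 of the 10 genes, against 40.7% of all genes tested. The effect in cells labelled EV-deficient exceeded that in cells labelled EV-proficient by 2.44 (log2) for Mmp13, 1.31 for Mmp9, 1.24 for Mmp10, 0.63 for Timp3 and 0.23 for Timp2. For Mmp13, Mmp9, Mmp10 and Timp3 this was called by each alternative tool, scaling and filter, and in each of the 12 fits without 1 library. It was not kept when the EV labels of the paclitaxel libraries were exchanged, a setting added after the data were seen: the interactions were then -0.37 for Mmp13, 0.43 for Mmp9, -1.05 for Mmp10, -1.11 for Timp3 and 0.20 for Timp2 (log2), and edgeR called those of Mmp10 and Timp3, with the opposite sign, where 9.60% of all genes were called in either direction. With the DMSO labels exchanged instead, a setting that was not run, each of these would by construction take the opposite sign. Those of Mmp10 and Timp3 would then be positive, as with the labels kept. The labels and either exchange cannot be told apart here. The row for the added dngfr sequence, which no comparison used, had counts in every library, with a lowest count of 93. Its level was highest in the EV-deficient paclitaxel and EV-proficient DMSO libraries. Beyond the exchange of the paclitaxel labels, its part in the interactions was not tested.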

How the results depend on the processing

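The number of the 10 genes called stayed within 1.5 times under every alternative with all libraries that kept the labels. It was 8 to 9 and 7 to 9 for paclitaxel in cells labelled EV-proficient and EV-deficient, 2 to 3 and 4 between the labels with DMSO and paclitaxel, and 4 to 5 for the interaction. Without 1 library the ranges were 7 to 8, 7 to 9, 3 to 3, 3 to 5 and 4 to 5. Of 381 single-gene values with all libraries and the labels kept, 364 kept their direction and their side of the threshold, 5 lost a call, 3 gained one and 9 changed sign. Of 600 values without 1 library the numbers were 563, 20, 6 and 11.

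With the EV labels of the paclitaxel libraries exchanged, added after the data were seen, 9, 9, 3, 4 and 2 of the 10 genes were called, and 1739 of all genes for the interaction against 7370. Timp3 was then at 0.3828 and -0.7248 for paclitaxel with the EV-proficient and the EV-deficient label. Between labels with paclitaxel each sign turned by construction, to 0.2511 (Mmp2), -0.3978 (Mmp3), -0.4375 (Mmp9), -1.1428 (Mmp10), -0.1524 (Mmp12), -1.4088 (Mmp13), 0.0616 (Mmp14), 0.1664 (Timp1), -0.0155 (Timp2) and -0.871 (Timp3). Interactions that turned were 0.0143 (Mmp2), -1.0482 (Mmp10), -0.3735 (Mmp13), 0.0915 (Mmp14), 0.2118 (Timp1) and -1.1077 (Timp3). Outside the 10 genes, Tnc turned to -1.1855 for paclitaxel with the EV-proficient label and the interaction of Mmp11 to 0.0429.

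With the labels kept, the values that changed sign were small, and all but 1 of them had not been called; the cause was not tested. For Mmp14 they were 0.0188 for paclitaxel with the EV-deficient label (upper-quartile scaling, a call in the main test), 0.0122 between labels with DMSO (no filter) and 0.0338 with paclitaxel (upper-quartile scaling). The interaction of Mmp14 was 0.0102 with DESeq2, 0.0193 with the 1 CPM filter, 0.0105 with median-of-ratios and 0.091 with upper-quartile scaling. The interaction of Timp1 was 0.002 with upper-quartile scaling, and Timp2 differed by -0.0085 between labels with paclitaxel without the filter. Without 1 library, the ranges that crossed 0 were, between labels with DMSO, -0.2208 to 0.0481 for Mmp10 and -0.0699 to 0.0015 for Mmp14. Between labels with paclitaxel they were -0.4214 to 0.0201 for Mmp2, -0.0713 to 0.2747 for Mmp12, -0.1205 to 0 for Mmp14 and -0.0012 to 0.0357 for Timp2, and for the interaction -0.0721 to 0.0694 for Mmp14 and -0.175 to 0.0233 for Timp1. Upper-quartile scaling moved the median of all genes from 0.07 to 0.26 for paclitaxel with the EV-deficient label and from -0.04 to 0.08 for the interaction.

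With the replicate number as a block, 8, 9, 3, 4 and 5 of the 10 genes were called, as without it, and 10520, 11363, 4258, 6858 and 7386 of all genes. Deviations of same-numbered libraries from their group means correlated between -0.081 and 0.097 over 18 pairs of libraries, and 16 of 36 best matches had the same number. The samples share only a number. The 1 CPM filter removed Mmp3, fits of only the groups compared gave 37 values because Mmp3 was filtered out of 3 of them, and the interaction needs all 4 groups. Depth limits Mmp3 most, with at most 17 counts in a library. The small changes of Mmp14 under paclitaxel turned on the scaling, the filter or 1 library. For Timp2 the rise with the EV-proficient label turned on 1 library, its difference with DMSO on the filter, and its interaction on either. The Timp2 rise with the EV-deficient label was called in all 12 fits without 1 library (0.34 to 0.39).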
